A study of Mus musculus with 6 samples.

Results

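The 10 genes described here are G1 cyclins, cyclin-dependent kinases (CDKs) and CDK inhibitors: *Ccnd1*, *Ccnd2*, *Ccnd3*, *Ccne1*, *Cdk2*, *Cdk4*, *Cdk18*, *Cdkl2*, *Cdkn1a* and *Cdkn1b*. They are a list of named genes, put together with earlier results of these data known, out of the 38561 genes of the deposited tables, and all 10 were among the 16425 genes with enough reads to be tested. RNA came from small intestinal mucosa, which the study's text calls jejunal, of C57BL/6J mice aged 8 to 12 weeks. The genotype in the labels was Rbm47_IKO for 3 pools and wt for the other 3, and each pool combined RNA of 3 mice of both sexes before the library was made. Ages and mice per pool are those of the labels, and the study's methods give a wider range for both. In the study's methods, Rbm47-IKO mice lack *Rbm47*, which encodes an RNA-binding protein, in the intestine, where the villin promoter drives Cre in the epithelium of small and large bowel. The same methods use *Rbm47* fl/fl mice as controls, and the labels call the controls wt. The labels give no treatment, and the study's methods describe BrdU, a thymidine analogue, given to mice shortly before harvest, without saying whether that includes the mice of these pools. Libraries were made from poly(A) RNA.

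Cells leave G1 when D-type cyclins, bound to CDK4 or CDK6, and then cyclin E, bound to CDK2, phosphorylate the retinoblastoma protein and release E2F factors, which turn on genes of DNA replication. The inhibitors p21 (*Cdkn1a*) and p27 (*Cdkn1b*) bind these cyclin-CDK complexes and hold CDK2 in check. In the intestine, dividing cells are confined to the crypts, and cells that move onto the villus leave the cycle, so that a mucosal sample mixes cycling and resting cells. CDK18 belongs to the PCTAIRE kinases and CDKL2 to the CDK-like kinases; both are named for the likeness of their kinase domain to that of CDKs and neither is an established driver of the G1 to S transition.

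Sequences were read from GENCODE M21 transcripts (GRCm38) to show how the kinases are related. In kinases of this family, the helix that packs against the cyclin carries a 7-residue signature. Codons of that signature are in capitals, with 1 flanking codon on each side, and the line for *Cdk16*, a PCTAIRE kinase that is not among the 10 genes, is shown for comparison with *Cdk18*:
Cdk2: gtaCCCAGTACTGCCATCCGAGAGatc
Cdk4: cttCCCGTCAGCACAGTTCGTGAGgtg
Cdk18: gcgCCCTGCACTGCTATTCGAGAGgtg
Cdk16: gcaCCCTGTACTGCTATCCGGGAAgta
Cdkl2: gttAAGAAGATCGCAATGCGAGAGatc

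These codons spell PSTAIRE in *Cdk2* (chr10:128703967-128703987, minus strand, exon 2), PVSTVRE in *Cdk4* (chr10:127064383-127064403, plus strand, exon 2), PCTAIRE in *Cdk18* (chr1:132119101-132119121, minus strand, exon 6) and in *Cdk16* (chrX:20694725-20694745, plus strand, exon 6), and KKIAMRE in *Cdkl2* (chr5:92039253-92039273, minus strand, exon 2). Of the 21 bases in capitals, *Cdk18* differed from *Cdk2* at 4, from *Cdk16* at 4, from *Cdk4* at 8 and from *Cdkl2* at 10. By these bases *Cdkl2* was the least like *Cdk18* of the members shown.

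The next sequences show motifs of 5 of the remaining members that act in the same complexes. D-type cyclins carry near their amino terminus an LLCCE motif of the LxCxE kind, through which they contact the retinoblastoma protein, and p21 and p27 share an RxLFG motif that docks on cyclins. Motif codons are again in capitals:
Ccnd1: cagCTCCTGTGCTGCGAAgtg
Ccnd2: gagCTGCTGTGCTGCGAGgtg
Ccnd3: gagCTGCTGTGTTGCGAGggc
Cdkn1a: tgcCGTTGTCTCTTCGGTccc
Cdkn1b: tgcAGAAATCTCTTCGGCccg

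The cyclin motifs lie at chr7:144939667-144939681 for *Ccnd1* and chr6:127150753-127150767 for *Ccnd2*, both on the minus strand, and at chr17:47593661-47593675 for *Ccnd3*, on the plus strand, all in coding exons. Those of the inhibitors lie at chr17:29098459-29098473 for *Cdkn1a* and chr6:134921007-134921021 for *Cdkn1b*, both on the plus strand.

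Values below are CPM values on TMM-normalized library sizes (counts scaled to a common library total), given for the pools labelled Rbm47-IKO 1, 2 and 3 and then wt 1, 2 and 3. Fold changes are log2 ratios of pools labelled Rbm47-IKO over wt with a standard error (SE), tested with edgeR's quasi-likelihood test, and an adjusted p is Benjamini-Hochberg adjusted over all 16425 genes with 0.05 as the threshold. Depth was 31560320 to 38951830 counts per pool. *Rbm47* itself (ENSMUSG00000070780, chromosome 5, 66016549 to 66173117) went against the labels: it stood at 602.7, 624.6 and 619.8 CPM in the pools labelled Rbm47-IKO and at 459.8, 449.9 and 472.1 CPM in wt, a log2 fold change of 0.42 (SE 0.10, edgeR adjusted p = 0.0751). A count over the whole gene does not separate deleted from retained exons, and reads of single exons were not examined. Why the counts were higher in the pools labelled Rbm47-IKO was not tested. Directions below are therefore between libraries as labelled. Enterocyte markers were abundant in every pool, with 8 genes summing to between 36083 and 42529 CPM. Smooth muscle markers, 6 genes, summed to 360.9, 585.7 and 3302 CPM against 90.7, 2803 and 313.1 CPM, so that 1 pool of each genotype was rich in them, and 4 Y-linked genes summed to 138.6, 53.04 and 143.7 CPM against 215.4, 87.9 and 220.3 CPM, the lowest in pool 2 of each genotype. Of 12 marker lists, the sums of 2 did not overlap between genotypes: 6 goblet cell genes summed to 20131, 22772 and 19972 CPM in the pools labelled Rbm47-IKO and to 17481, 15811 and 15028 CPM in wt, and 8 enteroendocrine genes to 133.0, 131.8 and 122.8 CPM against 158.4, 206.1 and 186.8 CPM. Within the goblet list, pools of *Fcgbp*, its most abundant gene, and of *Clca1* were apart and higher. Those of *Muc2*, *Tff3*, *Spink4* and *Agr2* overlapped, and *Spink4* had a log2 fold change of -0.28. In the goblet list 0 of 6 genes were called and in the enteroendocrine list 1 of 8, beside 2.7% of all genes tested, and single genes had pools that did not overlap in 23.3% of cases. The part of either in the members' values was not tested. In such bulk RNA, fewer cells of a type and less RNA per cell cannot be told apart.

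*Cdk18* was the member that passed the test, and it rose. That call was lost in each fit that left out 1 pool, and with the pool number as a replicate block. With all pools and no covariate, *Cdkl2* had the largest fold change of the members, and it missed the threshold. The other cyclins, kinases and inhibitors did not pass either, although *Ccnd2*, *Cdk2*, *Cdk4* and *Cdkn1a* were higher in every pool labelled Rbm47-IKO than in every wt pool. Thus 1 of 10 members was called higher and 0 lower, where 1.45% of all genes tested were called higher, 1.25% lower and 2.7% in either direction. At an unadjusted edgeR p under 0.05 there were 5 members, all of them higher, beside 8.57% of all genes tested that were higher at that p. That count was 2 without pool 1 or pool 2 labelled Rbm47-IKO, without wt pool 3 and with Y-linked genes as a covariate. In 6 of 10 members the pools did not overlap and the labelled Rbm47-IKO pools were the higher ones, and in 0 of 10 they were the lower ones, while 11.7% of all genes tested were apart and higher, 11.6% apart and lower, and 23.3% either. The log2 fold change was above 0 in 8 of 10 members, with a median of 0.41 beside -0.0059 over all genes tested. The members' median was 0.25 without pool 1 labelled Rbm47-IKO and 0.25 without wt pool 3. As the members were chosen with results known, these counts are a description, and without *Cdk18* and *Cdkl2*, which are no established G1 regulators, 0 of 8 were called and 4 of 8 were apart and higher. The extremes fell in the same libraries for many members: 7 of the 10 had their lowest value in wt pool 3 and 5 had their highest in pool 1 labelled Rbm47-IKO.

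**Figure D1:**
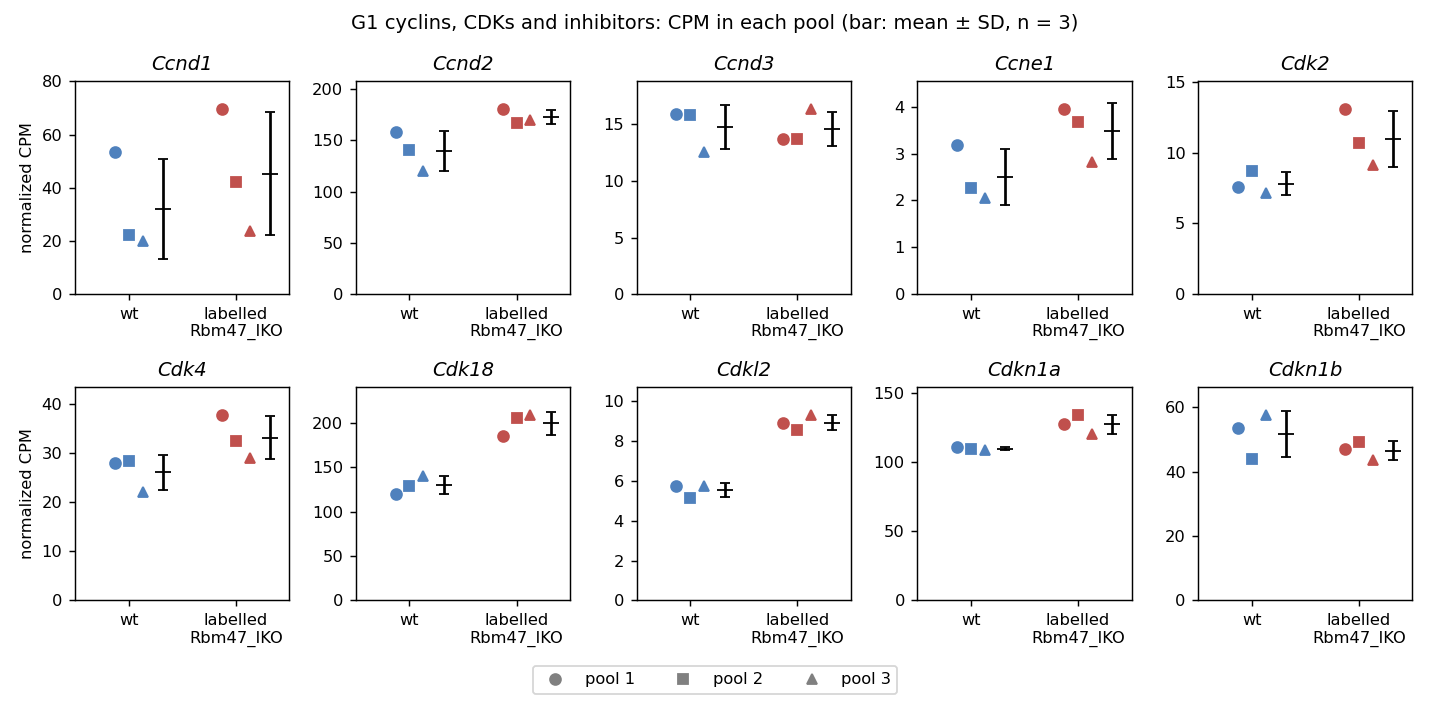
Normalized CPM (vertical axes, from 0, a scale for each gene) of the 10 members in each pool, wt in blue and labelled Rbm47_IKO in red, with marker shapes for pool numbers and a bar for the mean ± SD of 3 pools. The 2 groups are apart for Ccnd2, Cdk2, Cdk4, Cdk18, Cdkl2 and Cdkn1a, and the spread of Ccnd1 within a genotype exceeds the difference between genotypes.

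*Ccnd1* (ENSMUSG00000070348, chromosome 7, 144929931 to 144939869) encodes cyclin D1, the D-type cyclin most closely tied to Wnt and mitogen signaling. It stood at 69.7, 42.3 and 23.8 CPM in the pools labelled Rbm47-IKO and at 53.6, 22.4 and 20.03 CPM in wt. The groups overlapped, since wt pool 1 lay above pools 2 and 3 labelled Rbm47-IKO. The log2 fold change was 0.50 (SE 0.47, edgeR adjusted p = 0.693), with a 95% interval from -0.60 to 1.599, which holds both 0 and the value of every other member. Its spread was the widest among the members: the highest pool was 2.93-fold above the lowest among those labelled Rbm47-IKO and 2.68-fold among wt, and of 9768 genes with a mean CPM of at least 5 only 2.17% and 3.92%, respectively, varied more. Leaving out 1 pool moved the log2 fold change between 0.04, without pool 1 labelled Rbm47-IKO, and 1.09, without wt pool 1. Of the 3835 exon bases of *Ccnd1*, 818 are shared with exons of LTO1 on the other strand. LTO1 had between 404 and 664 counts in a pool, and *Ccnd1* between 730 and 2413.

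The summed level of genes of DNA replication and mitosis varied between pools in the same order as *Ccnd1* within each genotype. The 33 listed genes, which do not include *Ccnd1*, summed to 491.7, 384.8 and 308.6 CPM in the pools labelled Rbm47-IKO and to 541.5, 409.9 and 337.4 CPM in wt. In each genotype the pool with the highest sum also had the most *Ccnd1* and the pool with the lowest sum the least, while the sums of the 2 genotypes overlapped. Single genes of the list departed from that order, among them *Pcna*, which was highest in pool 2 of both genotypes. With the log2 sum as a covariate in the edgeR fit, an alternative added after these values were seen, the log2 fold change of *Ccnd1* was 0.77 and its SE 0.15 (edgeR adjusted p = 0.0623). That fit also missed the threshold, and it gave 261 genes called in all. With the smooth muscle markers as a covariate the log2 fold change of *Ccnd1* was 0.78 (SE 0.27, edgeR adjusted p = 0.160). With a replicate block it was 0.51, near that without a covariate, and its SE was 0.16 (edgeR adjusted p = 0.194). Pool numbers ranked alike in the S phase sum in both genotypes, so the block can take up the same differences as that sum. The S phase sum was measured in the same libraries, and what sets its level in a pool was not tested.

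**Figure D2:**
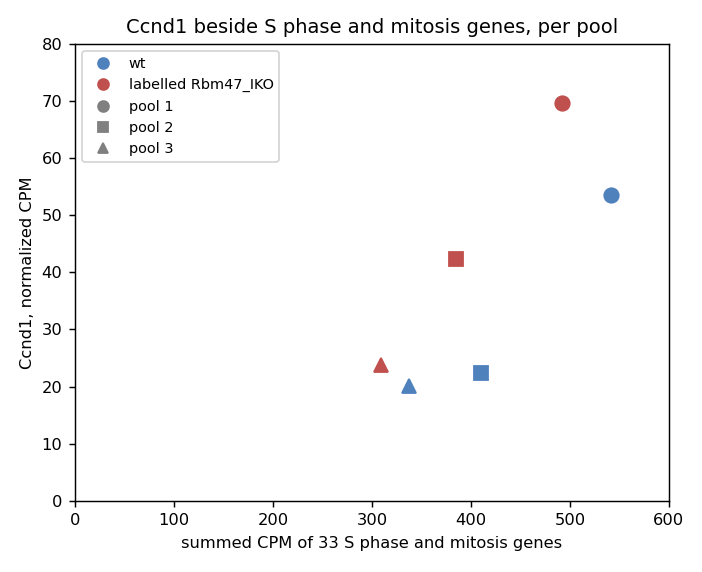
Normalized CPM of Ccnd1 (vertical axis) against the summed CPM of 33 S phase and mitosis genes (horizontal axis), 1 point per pool, wt in blue and labelled Rbm47_IKO in red, with marker shapes for pool numbers. Within each genotype the pool with more S phase and mitosis RNA had more Ccnd1, and pool 1 labelled Rbm47_IKO lies above wt pool 1 with a smaller sum.

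*Ccnd2* (ENSMUSG00000000184, chromosome 6, 127125779 to 127151048), which encodes cyclin D2, stood at 180.9, 167.3 and 170.5 CPM against 158.4, 140.8 and 120.0 CPM in wt. Every pool labelled Rbm47-IKO was above every wt pool, with the nearest values at 167.3 and 158.4 CPM. The log2 fold change of 0.31 (SE 0.12, 95% interval 0.02 to 0.60) did not pass (edgeR adjusted p = 0.271). *Ccnd3*, which encodes cyclin D3 and lies on chromosome 17 (47505051 to 47599691), had 13.7, 13.7 and 16.4 CPM against 15.9, 15.8 and 12.5 CPM. Its groups overlapped almost completely, and its log2 fold change of -0.02 (SE 0.15, edgeR adjusted p = 0.975) changed sign when any of 4 single pools was left out, with values from -0.12 to 0.04. Its exons share 361 of their 8775 bases with *Bysl* on the other strand, which had 175 to 348 counts per pool against 456 to 600 for *Ccnd3*. *Ccne1*, which encodes the CDK2 partner cyclin E1 (chromosome 7, 38097984 to 38107534), was the least abundant of the members, at 3.96, 3.67 and 2.82 CPM against 3.18, 2.27 and 2.06 CPM, from 75 to 139 counts per pool. Pool 3 labelled Rbm47-IKO lay below wt pool 1, and the log2 fold change of 0.48 (SE 0.27) did not pass (edgeR adjusted p = 0.433).

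Levels per kilobase use the exon length in the deposited tables, which joins all annotated exons of a gene. That length can exceed the length of 1 mRNA, so levels of different genes compare only roughly. On this scale *Ccnd2* was the main D-type cyclin in every pool. The 3 D-type cyclins together had 51.5, 41.9 and 38.0 CPM per kilobase in the pools labelled Rbm47-IKO and 43.6, 32.3 and 27.7 in wt, and the groups overlapped. *Ccnd2* made up 61.7%, 70.0% and 78.8% of that level, against 63.7%, 76.4% and 76.0% in wt. *Ccnd1* made up 35.3%, 26.3% and 16.3%, against 32.1%, 18.1% and 18.9%. The share of *Ccnd3* was between 3.03% and 5.57% in all 6 pools. That share may be understated, since its exon length is 8775 bases. Its longest M21 3′ UTR has 915 bases and its protein 292 residues. Both pools numbered 1 had the highest *Ccnd1* share of their genotype, and the mean *Ccnd1* share, 26.0% ± 9.50 (SD, n = 3) in the labelled Rbm47-IKO pools and 23.0% ± 7.87 (SD, n = 3) in wt, differed by less than the spread between pools.

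**Figure D3:**
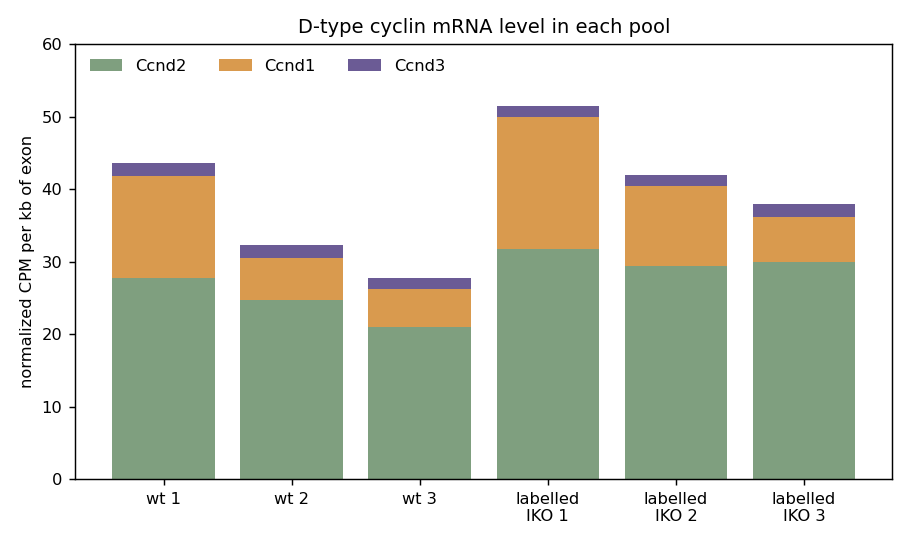
Stacked bars of the Ccnd2 (bottom), Ccnd1 (middle) and Ccnd3 (top) level in each pool, in normalized CPM per kilobase of exon (vertical axis, from 0). Ccnd2 is the largest segment in all 6 pools, and the Ccnd1 segment varies more between pools of a genotype than the others.

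Both G1 kinases were higher in the pools labelled Rbm47-IKO, short of the threshold. *Cdk2*, the kinase partner of cyclins E and A (chromosome 10, 128697939 to 128705051), had 13.1, 10.7 and 9.13 CPM against 7.59, 8.72 and 7.13 CPM. The groups were apart by a small margin, between 9.13 and 8.72 CPM, and the log2 fold change was 0.49 (SE 0.18, 95% interval 0.07 to 0.92, edgeR adjusted p = 0.230). *Cdk4*, the kinase partner of the D-type cyclins (chromosome 10, 127063534 to 127067920), had 37.8, 32.5 and 29.1 CPM against 28.0, 28.3 and 22.0 CPM. Its groups too were apart by a small margin, with a log2 fold change of 0.34 (SE 0.15, edgeR adjusted p = 0.297). Exons of *Cdk4* share 604 of their 3249 bases with *Tspan31* on the other strand, which had 1127 to 1871 counts per pool against 803 to 1309 for *Cdk4* and was above it in every pool, and the sources used here do not state whether counting used strand. Per kilobase, *Cdk4* was 2.16 to 2.38 times the level of *Cdk2* in the labelled Rbm47-IKO pools and 2.31 to 2.76 times in wt, and the sum of both kinases was 17.0, 14.4 and 12.7 against 11.7, 12.3 and 9.72.

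*Cdk18* (ENSMUSG00000026437, chromosome 1, 132113550 to 132139685), the PCTAIRE kinase, had 184.7, 205.0 and 208.9 CPM in the pools labelled Rbm47-IKO and 119.7, 129.0 and 140.0 CPM in wt, from 4070 to 7763 counts per pool. The groups were well apart: the gap between the lowest pool labelled Rbm47-IKO and the highest wt pool was larger than the range within either group. The log2 fold change was 0.62 (SE 0.11, 95% interval 0.37 to 0.88), or 1.54-fold, with an edgeR adjusted p of 0.0327, the 265th lowest of all genes tested. Its size held and its call did not when pools were left out: the log2 fold change stayed between 0.57 and 0.69 without any 1 pool, with an edgeR adjusted p from 0.0573 to 0.1999. The call was also lost with the pool number as a replicate block (log2 fold change 0.62, edgeR adjusted p = 0.0808), with an offset for GC content (0.51, edgeR adjusted p = 0.0890), with the S phase covariate (0.59, edgeR adjusted p = 0.0515), with Y-linked genes as a covariate (0.61, edgeR adjusted p = 0.125) and without the muscle-rich pools, pool 3 labelled Rbm47-IKO and wt pool 2 (0.58, edgeR adjusted p = 0.0988). With the muscle markers as a covariate it was kept (0.60, edgeR adjusted p = 0.0329).

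*Cdkl2* (chromosome 5, 92006074 to 92043042), the KKIAMRE kinase, had 8.90, 8.58 and 9.31 CPM in the pools labelled Rbm47-IKO and 5.76, 5.14 and 5.74 CPM in wt, from 195 to 325 counts per pool. Values within a group lay close together and the groups were far apart. The log2 fold change was 0.69 (SE 0.15, 95% interval 0.33 to 1.04), or 1.61-fold, and did not pass with an edgeR adjusted p of 0.0639. Without any 1 pool it stayed between 0.64 and 0.72. DESeq2 called it (adjusted p = 0.00754), over alternatives whose adjusted p ran from 0.00754 to 0.274.

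Neither inhibitor passed the test. *Cdkn1a*, which encodes p21, a p53 target (chromosome 17, 29090979 to 29100722), had 127.7, 133.9 and 119.9 CPM in the pools labelled Rbm47-IKO and 110.6, 109.1 and 108.5 CPM in wt. The groups were apart, and the wt pools were nearly equal: their highest was 1.02-fold above their lowest, and 99.7% of 9768 genes varied more in wt. The log2 fold change of 0.22 (SE 0.09, edgeR adjusted p = 0.299) did not pass. With the GC offset it was 0.13 (edgeR adjusted p = 0.638). *Cdkn1b*, which encodes p27 (chromosome 6, 134920401 to 134925513), had 46.9, 49.2 and 43.5 CPM against 53.7, 43.9 and 57.6 CPM. Its groups overlapped, and its log2 fold change of -0.15 (SE 0.13, 95% interval -0.45 to 0.14) did not pass (edgeR adjusted p = 0.632). It was -0.26 without wt pool 2, -0.06 without wt pool 3 and -0.03 with the GC offset. The ratio of *Cdkn1a* to *Cdkn1b* per kilobase was 5.58, 5.58 and 5.64 in the pools labelled Rbm47-IKO and 4.22, 5.09 and 3.86 in wt, and these did not overlap. Set against the kinases, the summed inhibitors were 3.98, 4.93 and 5.0 times the summed *Cdk2* and *Cdk4* level, against 5.24, 4.77 and 6.33 times in wt, and these did overlap.

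**Figure D4:**
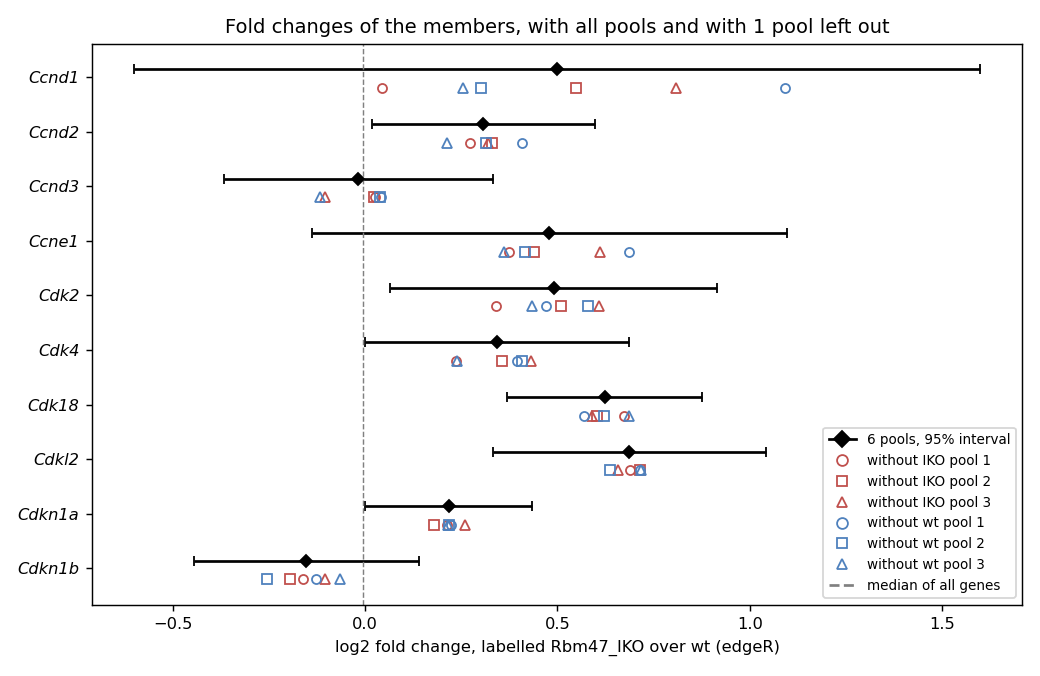
Log2 fold change of each member, pools labelled Rbm47_IKO over wt (horizontal axis), from edgeR with all 6 pools (black diamonds, 95% interval) and without each pool in turn (open symbols, red for a labelled Rbm47_IKO pool left out and blue for wt). Cdk18 and Cdkl2 keep their size in all 6 reduced fits, Ccnd1 ranges from 0.04 to 1.09 and Ccnd3 crosses 0.

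By level per kilobase in the pools labelled Rbm47-IKO, the order was *Cdk18* (65.6 ± 4.26, SD, n = 3), *Cdkn1a* (57.2 ± 3.15), *Ccnd2* (30.3 ± 1.25), *Ccnd1* (11.8 ± 6.03), *Cdkn1b* (10.2 ± 0.623), *Cdk4* (10.2 ± 1.36), *Cdk2* (4.51 ± 0.826), *Cdkl2* (1.80 ± 0.0737), *Ccnd3* (1.66 ± 0.175) and *Ccne1* (1.31 ± 0.223). In wt, *Cdkn1a* came first with 49.2 and *Cdk18* second with 42.6, and the lowest were *Ccnd3* (1.68), *Cdkl2* (1.12) and *Ccne1* (0.939). In the pools labelled Rbm47-IKO, *Ccnd1*, *Cdkn1b* and *Cdk4* did not differ beyond their spread, nor did *Cdkl2* and *Ccnd3*. In wt, every *Cdkn1b* value, from 9.64 to 12.65, lay above every *Cdk4* value, from 6.78 to 8.72. Exon lengths come from the tables and join all annotated exons, so the rank of *Ccnd3*, with 8775 bases, may be too low. The level of *Cdk18* rests on 3043 bases, whereas its longest M21 3′ UTR runs 1313 bases beyond the end of the gene in the tables. The 3′ UTR of *Ccnd2* likewise has 617 bases outside the gene in the tables, and that of *Cdkn1a* 5.

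Genes whose log2 CPM followed a member most closely over the 6 pools, among 9767 others with a mean CPM of at least 5, are a description of 6 points that share the genotype difference. For *Cdk18* they were *Srd5a1*, a steroid 5-alpha-reductase (Pearson r 0.998), *Rell1* (0.997) and *Usp2*, a deubiquitinase known to act on cyclin D1 (0.996). For *Ccnd1* they were *Irgm2*, an interferon-inducible GTPase (0.990), *Prc1*, a microtubule bundler of cytokinesis (0.986), and *Nup210*, a nuclear pore protein (0.984). *Prr12* (0.996), *Shmt1*, a serine hydroxymethyltransferase of one-carbon metabolism (0.986), and *Tmem201* (0.986) followed *Ccnd2*. *Rnaseh2b*, a subunit of ribonuclease H2 (0.995), *Cdyl* (0.991) and *Ggt6* (0.989) followed *Cdkn1a*. The *Ccnd1* neighbors had small log2 fold changes, from 0.11 to 0.30, whereas those of *Cdk18* had 0.60 to 0.996.

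In the rest of the G1 network, 8 lists of 119 genes in all, 115 were tested, 2 were called higher and 0 lower, beside 1.45% and 1.25% of all genes tested. Log2 fold changes were above 0 in 62 of the 115, with a median of 0.01, and pools were apart and higher for 13 and apart and lower for 4, beside 11.7% and 11.6% of all genes tested. The first called gene was *Usp2*, in the list for turnover of G1 cyclins and inhibitors (13 tested, median -0.05). It had 95.3, 103.9 and 106.0 CPM against 46.8, 52.8 and 56.8 CPM, far apart, with a log2 fold change of 0.96 (SE 0.11, edgeR adjusted p = 0.00996). The other was *Sesn2*, a stress-induced regulator of TOR signaling, in the list of p53 targets besides *Cdkn1a* (20 tested, median 0.18). *Sesn2* had 13.6, 16.4 and 13.1 CPM against 8.44, 8.80 and 8.67 CPM, a log2 fold change of 0.74 (SE 0.14, edgeR adjusted p = 0.0430). *Usp2* was called in 13 of 14 other fits, all but that with the Y-linked covariate (edgeR adjusted p = 0.0528), and in 3 of 6 with 1 pool left out, being lost without pool 1 (edgeR adjusted p = 0.0567) or pool 2 (0.0834) labelled Rbm47-IKO or wt pool 3 (0.0504). *Sesn2* was called in 8 of 14 other fits and in 0 of 6 with 1 pool left out, with an adjusted p from 0.00145 to 0.255 over all of them.

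Of the genes closest to the members, none passed. Among 7 other G1 cyclins, CDKs and proteins that act on them (median -0.06, 2 above 0), the lowest p were those of *Ccnh*, the cyclin of the CDK-activating kinase (log2 fold change -0.39, edgeR adjusted p = 0.206, apart and lower), and *Cdk6*, the alternative partner of D-type cyclins (0.26, edgeR adjusted p = 0.559). Among 5 other CDK inhibitors tested (median 0.25), they were *Cdkn2b*, which encodes p15 (0.49, edgeR adjusted p = 0.309), and *Cdkn2c*, which encodes p18 (0.38, edgeR adjusted p = 0.333). *Cdkn2a* was below the count filter, with 1 to 15 counts per pool. For 9 relatives of CDK18 and CDKL2 and their cyclins (median 0.06), *Cdk16* had 166.4, 171.5 and 153.4 CPM against 124.7, 129.9 and 139.4 CPM (log2 fold change 0.32, edgeR adjusted p = 0.159), and *Ccnyl1*, a cyclin Y-like partner of PCTAIRE kinases, stood at 0.31 on that scale (edgeR adjusted p = 0.330). Pools were apart for both.

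Upstream and downstream of the complexes there was no call either. Of 15 tested Wnt and Myc inputs (median 0.20, 10 above 0), *Znrf3*, a ubiquitin ligase that removes Wnt receptors, had 0.47 on the log2 scale (edgeR adjusted p = 0.276) and *Ephb2*, a Wnt target receptor of the crypt, 0.41 (edgeR adjusted p = 0.290). Among 13 pocket proteins and E2F factors (median 0.03), *E2f5* had 0.36 (edgeR adjusted p = 0.259) and *Rbl1*, which encodes p107, -0.28 (edgeR adjusted p = 0.275). The 33 S phase and mitosis genes had a median of -0.06, with 13 above 0. *Pcna*, the sliding clamp of replication forks, had the lowest p among them, with 12.3, 13.2 and 9.86 CPM against 15.9, 17.4 and 15.4 CPM, lower in every pool labelled Rbm47-IKO (log2 fold change -0.46, edgeR adjusted p = 0.165), followed by *Rrm1*, a subunit of ribonucleotide reductase, whose pools overlapped (-0.27, edgeR adjusted p = 0.663).

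**Figure D5:**
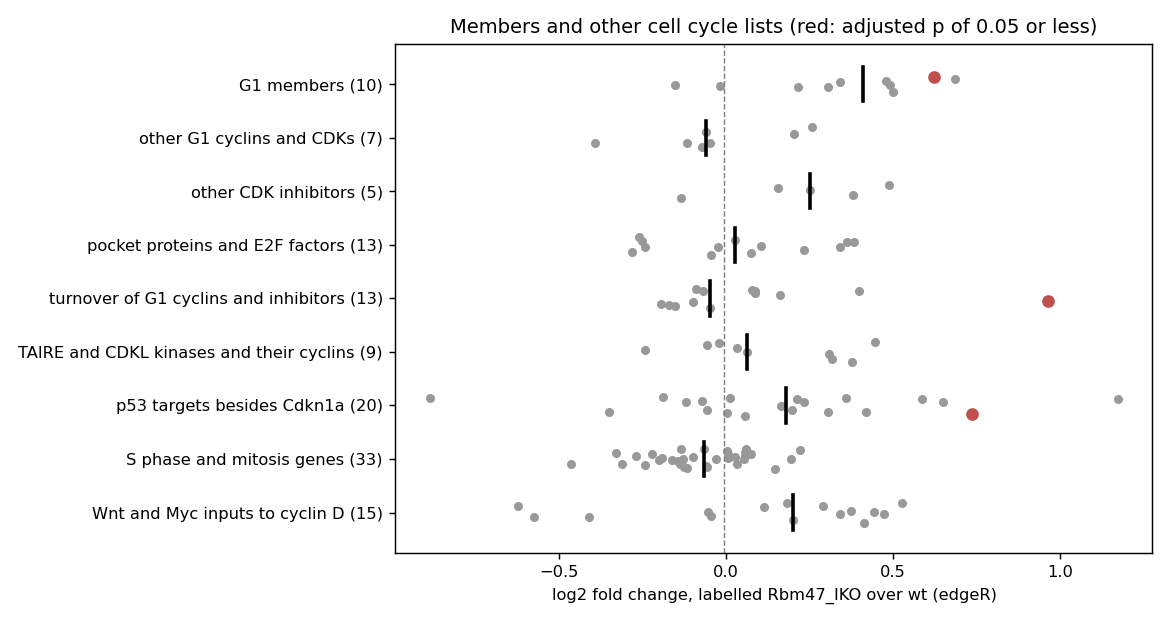
Log2 fold change (horizontal axis, pools labelled Rbm47_IKO over wt) of the tested genes of each list, with the number tested in brackets, 1 point per gene, red where the edgeR adjusted p was 0.05 or less, and a black bar at the list's median. The members' median is 0.41 with all 6 pools, that of the S phase and mitosis genes is -0.06, and the dashed line marks the median of all genes tested.

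The members were also searched for the letters ATTTA, the core of AU-rich elements, on the transcript strand of their longest M21 3′ UTR. *Cdkn1b* held 10 in 3439 bases, *Ccnd1* 5 in 2676, *Cdkn1a* 4 in 1334, *Ccnd2* 2 in 5173, *Cdk2* 2 in 1167 and *Cdkl2* 2 in 2084, while *Ccnd3*, *Cdk4* and *Cdk18* held 1 each and *Ccne1* 0 in 531. Of 13960 tested genes with a 3′ UTR of at least 50 bases, 69.5% held 1 or more, with a median of 1.28 per kilobase. *Cdkn1a* and *Cdkn1b*, at 3.00 and 2.91 per kilobase, exceeded 80.4% and 79.4% of those genes, and *Cdk18* at 0.371 exceeded 31.5%. A match is a description of these letters and not of a site in use.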

How the data were processed

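The authors deposited, for each pool, the count of reads per Ensembl gene without normalization, with CPM and RPKM columns. The submitters' processing notes name STAR 2.5.1a, featureCounts 1.4.6-p5 and GRCm38; use of strand is not given in the sources used here. The deposited CPM and RPKM values were not used further. Counts, at 31560320 to 38951830 per pool, were filtered with filterByExpr, scaled with TMM factors and compared between genotypes by edgeR 4.0.16 (quasi-likelihood, R 4.3.3), with Benjamini-Hochberg adjustment and no covariate. DESeq2 1.42.0 and limma 3.58.1 served as alternatives, and scripts for sequences and plots used Python 3.11.15. Log2 CPM for likeness used a prior count of 2. Level per kilobase is CPM over the exon length in the tables.

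The labelled genotype defined the groups. The labels state separate mice within a pool. P-values measure the spread between pools, and pools were taken as independent of each other. Intervals cover sampling of these pools, and reads are not independent molecules. The members and lists were chosen with earlier results of these data known. Named genes were all members, *Rbm47*, each list's called genes or otherwise its 2 genes with the lowest p, and the 3 genes most like *Cdk18*, *Ccnd1*, *Ccnd2* and *Cdkn1a*. *Cdkn2a*, named for its low counts, and LTO1, *Bysl* and *Tspan31*, named for exons shared with members, fall under no rule and were picked after their values were known. The genes of the goblet list were named because its sums did not overlap, also after their values were known. The fit was tested on simulated data. Alternatives were 14 fits with other tools, normalizations, filters, covariates, a block or fewer pools, and 6 that left out 1 pool each; the S phase covariate was added after the data were seen. No pool was left out of the main results.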

Additional observations from a re-analysis of the deposited data

How the results depend on the processing

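The 443 genes called by edgeR became 1252 with DESeq2, 100 with the pool number as a replicate block, 711 with a smooth muscle covariate, 59 with a Y-linked covariate, 266 with a GC offset and 261 with the S phase covariate added after the data were seen. Leaving out 1 pool gave 0 to 431. The 0 came without pool 2 labelled Rbm47-IKO, with 1729 genes still at an unadjusted edgeR p under 0.05, and there were 11 without wt pool 3, 32 without pool 1 and 119 without pool 3 labelled Rbm47-IKO. The count of 1 member called became 2 with DESeq2, with a minimum of 1 CPM in 3 pools and with the smooth muscle covariate (*Cdk18* and *Cdkl2*), and 0 with the replicate block, the Y-linked covariate, the S phase covariate and without both muscle-rich pools. It was 0 to 0 when 1 pool was left out. Over the tested genes with a known GC content, log2 fold change and GC content had a Spearman correlation of 0.27. GC content was 56.4% for *Cdk18* and 42.0% for *Cdkl2*. With the GC offset the 1 member called was *Cdkl2* (log2 fold change 0.83, edgeR adjusted p = 0.0396) and not *Cdk18* (0.51, edgeR adjusted p = 0.0890). *Cdk18* had 0.62 with the replicate block (edgeR adjusted p = 0.0808) and 0.59 with the S phase covariate (edgeR adjusted p = 0.0515). The 2 network genes called, both higher, became 5 with DESeq2 (4 higher), 1 with the replicate block and 0 with the Y-linked covariate. There was 1 with the GC offset, 1 with the S phase covariate and 0 to 2 with 1 pool left out. The count was 2 without the filter on low counts, without both muscle-rich pools and without wt pool 2. In each of these fits only 1 of the 2 was higher, the other being lower, and *Sesn2* was not called. Leave-one-out values of *Ccnd3* (log2) ran from -0.118 to 0.0422; it changed sign, to 0.03 without pool 1 and 0.02 without pool 2 labelled Rbm47-IKO, and to 0.04 without wt pool 1 and 0.04 without wt pool 2. The cause of these moves was not tested. In each of the 14 alternatives besides those without a single pool, 8 of 10 members were above 0, and in those with 1 pool left out 8 or 9 were.

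Between pools of equal number, deviations from the group means correlated over all genes at 0.41, -0.003 and -0.28. Not every pool correlated best with its own number. The highest correlation, 0.48, was that of pool 3 labelled Rbm47-IKO with wt pool 2, the muscle-rich pools. Since muscle content can weigh on such correlations, they do not decide whether pools of equal number were paired. *Ccne1* had the fewest reads of the members, and the 3 pools per genotype limited the precision of all of them.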
